A study of Caenorhabditis elegans with 15 samples.

Results

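Adult nematodes raised on filtrate of Lake Stößensee collected in October were compared with nematodes raised on water, to ask which transcripts the lake material altered. The comparison rests on the 6 of 15 arrays in the series whose titles name these groups, 3 for October and 3 for the water control. RNA came from whole Caenorhabditis elegans of strain N2 wildtype, fed OP50 bacteria on agar plates at 20 °C, under exposure throughout their lives, and taken as adults of day 1. The October filtrate was given at 200% of the original lake content of AOBr, which in its usual reading is adsorbable organic bromine, and the water group had no exposure. The lake material was filtered and lyophilised before it was mixed into bacteria and agar, and the labels do not say whether the water was handled alike. The 9 other arrays, of August lake water, a Microcystis aeruginosa batch culture and the Z-medium control of that culture, entered the same fit and are used here to place the October values.

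C. elegans meets dissolved chemicals mainly through its gut and cuticle. Cytochrome P450 enzymes oxidise foreign compounds, UDP-glucuronosyltransferases and glutathione S-transferases attach sugars or glutathione to them, and ABC transporters export the products. Nuclear hormone receptors control many of these genes. The same tissues answer microbes with lysozymes, antimicrobial peptides and C-type lectins, so both sets of genes are the usual places to look when worms are given water from a lake with cyanobacteria.

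No transcript differed between October lake water and water at an adjusted p under 0.05. Of 13529 probe sets tested, 0 passed (0%), by limma with Benjamini-Hochberg adjustment, and the smallest adjusted p was 0.130. At an unadjusted p under 0.05 there were 286 probe sets (2.11%), 152 higher (1.12%) and 134 lower (0.99%) in October. The arrays of both groups did not overlap at 1023 probe sets (7.56%), with October above water at 507 (3.75%) and below at 516 (3.81%). The comparison of Z-medium with water, in which neither group met lake material, gave non-overlapping arrays at 6.72% of probe sets. The August comparison, which uses the same water arrays, gave 7.19%. The values below describe the 30 genes with the smallest p among those whose October and water arrays do not overlap. For these, separation from water was a condition of the choice, so it adds no support. The 2 members of each gene list with the smallest p were also chosen, whether or not their arrays overlap, but only some of them are given. Of those left out some overlapped, such as elo-5, col-72 and grl-9, and some did not, such as rpn-11 and ins-34. None of all these genes rose or fell in October against water by the test used.

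The distribution of changes was narrow and centred on 0. The median log2 difference of October minus water was 0.003, and from the 5th to the 95th percentile the differences ran from -0.25 to 0.26. The 95% confidence interval lay within a 2-fold change in either direction for 12941 probe sets (95.7%). That share was 99.6% of the 3745 probe sets with a mean signal over 1000, and 83.0% of the 2155 with a signal under 100, so a 2-fold change was less often bounded for dim genes. The median standard error of a log2 difference was 0.15 over all probe sets, 0.10 for the brightest class and 0.26 for the dimmest. Only 14 probe sets had a mean difference beyond 2-fold, 9 higher and 5 lower. In 7 of these the arrays of both groups overlapped, and 13 of the 14 had a mean signal under 300.

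**Figure D1:**
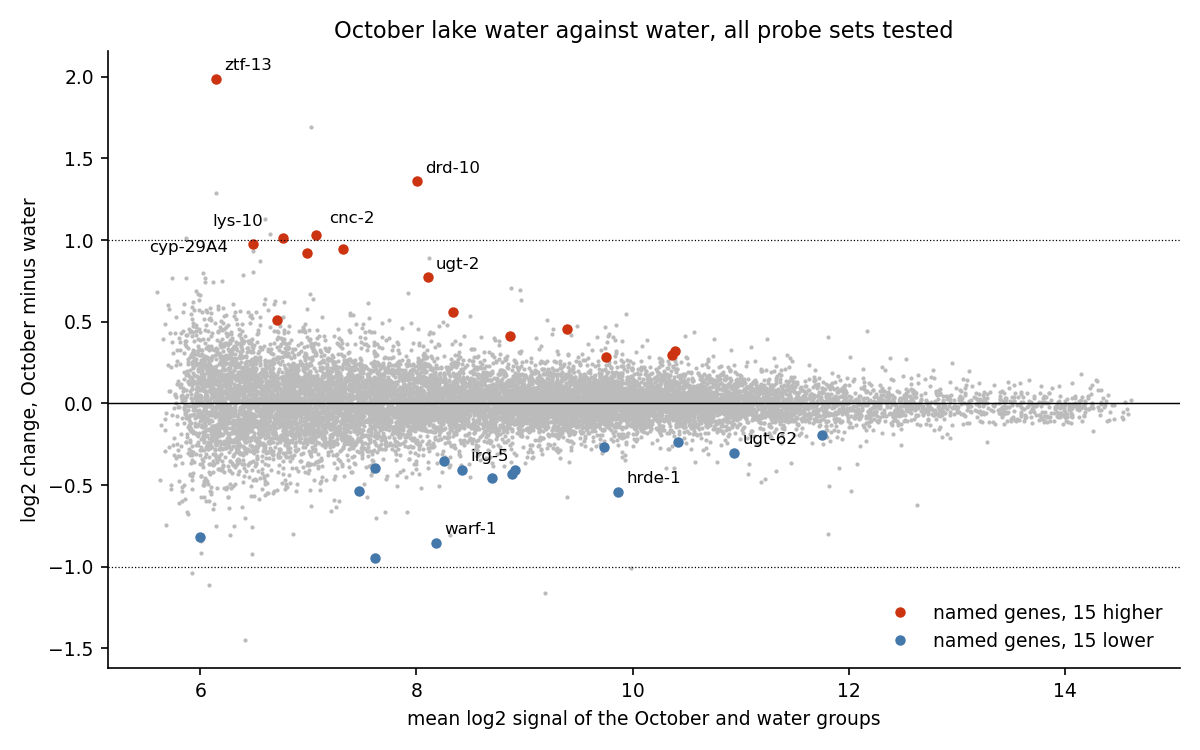
Log2 difference of October minus water (vertical axis) against the mean log2 signal of both groups (horizontal axis) for the 13529 probe sets tested. Coloured points are the 15 higher and 15 lower named genes, dotted lines mark a 2-fold change, and the cloud widens towards dim signals, where ztf-13, drd-10, cnc-2 and lys-10 lie above the upper line.

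Arrays of both groups were as alike between groups as within them. Log2 signals correlated at 0.963 to 0.967 among October arrays, 0.961 to 0.962 among water arrays and 0.960 to 0.966 between the groups, which is a description over probe sets. The array medians of the series lay between 99.2 and 113. Replicate 1 stood apart from the others in both groups by its heat shock genes, which were chosen after their values were seen. The small chaperone gene hsp-16.2 read 395, 23.9 and 95.9 in water and 743, 60 and 42.1 in October, in replicate order. The inducible HSP70 gene hsp-70 read 293, 40 and 60.1 in water and 496, 47.6 and 16.2 in October. In both genes the replicate 1 array was the highest of its group, and the groups overlapped. The ribosomal RNA probe set of rrn-3.1 read 7282, 2767 and 3827 in water and 4614, 1325 and 2401 in October. Its log2 difference of -0.80 ± 0.55 (SE) also left the groups overlapping, and the geometric mean of 6 ribosomal RNA probe sets was 1641 to 3273 in water and 1131 to 2428 in October. The ratio of 3′ to 5′ signal, a measure of RNA integrity, for the glyceraldehyde-3-phosphate dehydrogenase control was 1.21, 1.33 and 1.23 in water and 1.05, 1.198 and 1.18 in October. For actin it was 1.72 to 1.95 in water and 1.77 to 1.85 in October. The part of replicate 1, ribosomal RNA or RNA integrity in the results was not tested except where values without replicate 1 are given.

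**Figure D2:**
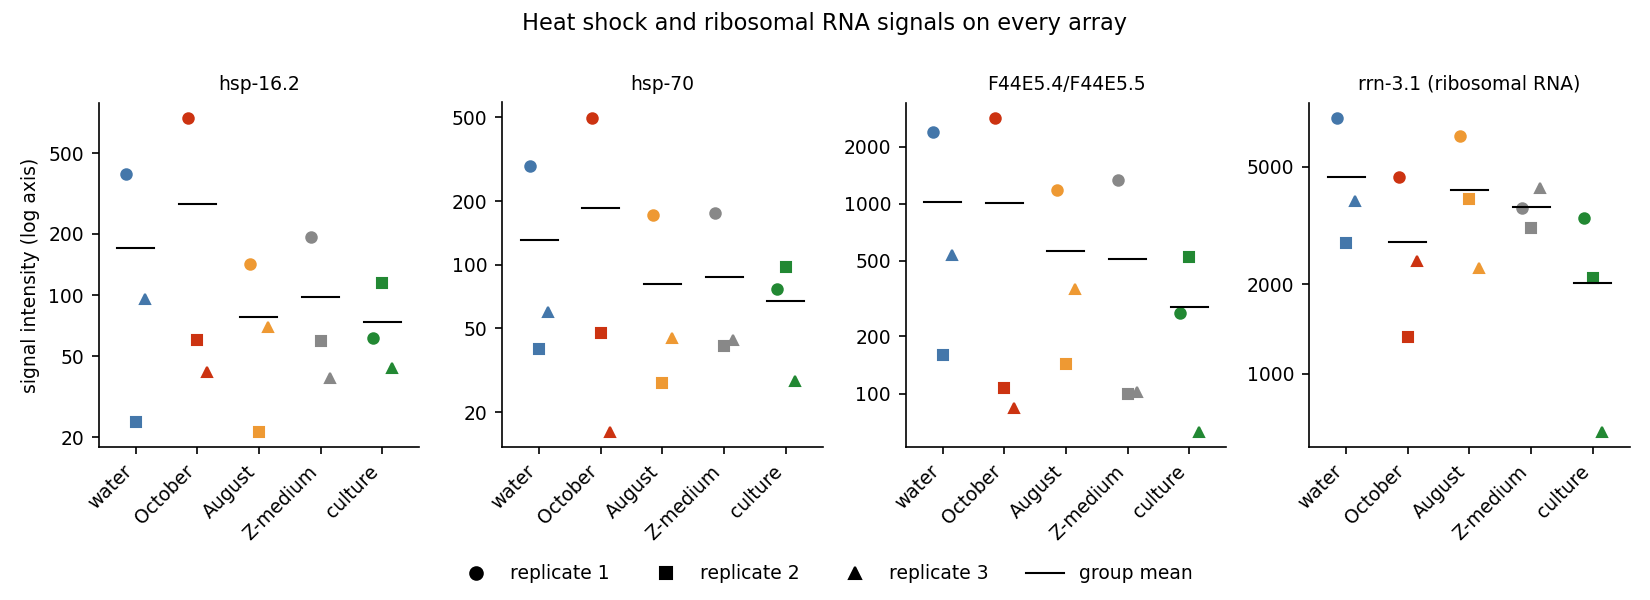
Signal intensity on a log axis for hsp-16.2, hsp-70, a probe set shared by F44E5.5 and F44E5.4, and an rrn-3.1 ribosomal RNA probe set on each of the 15 arrays, by group. Symbols mark the replicate and lines the group mean. In water and October replicate 1 is highest in all 4 panels, with hsp-16.2 at 395 and 743.

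The tissues expected in adult hermaphrodites were present at like levels in both groups. The summed signal of 5 intestinal markers was 38024 to 40305 in water and 34152 to 38552 in October, so the ranges overlapped. Among them elt-2, the gut transcription factor, read 214, 251 and 241 in water and 174, 230 and 193 in October. The 3 body wall muscle markers summed to 15996 to 17743 in water and 15831 to 18502 in October, and the 4 oocyte markers to 20917 to 24915 and 21418 to 23342. Sperm markers, 25 on the array of which 23 were tested, summed to 241623 to 327926 in water and 264732 to 339287 in October. The adult collagen col-19 read 6350 to 6459 in water and 5991 to 6790 in October. RNA came from whole animals, so fewer cells of a type and less RNA per cell cannot be told apart in any value given here.

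The gene nearest to the threshold was drd-10, whose name marks transcripts lowered by dietary restriction. Its signal was 196, 137 and 148 in water and 447, 447 and 339 in October. Every October array was above every water array, and also above all 9 arrays of the other groups. August arrays read 324, 182 and 278, Z-medium arrays 170, 146 and 195, and culture arrays 170, 221 and 186. The mean was 161 ± 31.4 in water and 411 ± 62.1 in October (SD, n = 3 each), a 2.57-fold ratio of the log means and a log2 difference of 1.36 ± 0.21 (SE; 95% interval 0.91 to 1.81; limma adjusted p = 0.130). The adjusted p of drd-10 was 0.0316 with each array scaled to a common median and 0.0299 with a term for replicate 1. Without the 5 replicate 1 arrays it was 0.211, with a log2 difference of 1.45. With 1 water or October array left out it ran from 0.102 to 1.00. The other 3 drd genes tested, drd-1, drd-5 and drd-50, had log2 differences of -0.13, -0.23 and -0.14 with overlapping arrays.

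Immune genes did not move as 1 class. The cnc-2 gene encodes a caenacin, an antimicrobial peptide of the epidermis. Its signal was 70.6, 125 and 90.8 in water and 194, 199 and 177 in October, above every other array of the series, with August at 138, 153 and 136. The log2 difference was 1.03 ± 0.19 (95% interval 0.62 to 1.44; limma adjusted p = 0.494). It passed under no alternative tried. The antimicrobial peptide and saposin-like list had 33 genes tested, 19 of them with a positive difference, and its median log2 difference was 0.02 beside 0.004 over all 10259 genes. Over all these genes 51.4% had a positive difference, and October lay above water on all arrays for 398 and below for 376. The counts of each list stand against these shares. October was above water on all arrays for 2 of the 33, cnc-2 and nlp-28 (0.21), and below for abf-1 (-0.35). The peptide gene nlp-24 read 173, 101 and 123 in water and 155, 175 and 187 in October, with overlap. Both nlp-28 and abf-1 were named after their values were seen.

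Lysozymes digest bacterial cell walls. The signal of lys-10 was 78.2, 68.5 and 82.5 in water and 127, 158 and 180 in October. The October arrays were above all others, although the Z-medium arrays, at 106, 112 and 108, were also above the water arrays. Its log2 difference was 1.01 ± 0.21 (95% interval 0.56 to 1.46; limma adjusted p = 0.851). Of 9 lysozyme genes tested, 6 had a positive difference and the median was 0.10. The Z-medium minus water median of the same genes was also 0.10, from the same water arrays. October was above water on all arrays for lys-10, ilys-5 (0.10) and lys-8 (0.11), the last pair named after their values were seen. The abundant lys-2 read 2566, 2284 and 2138 in water and 2112, 1859 and 2246 in October, a log2 difference of -0.17 ± 0.10 with overlap, and -0.10 without water replicate 1 or -0.09 without October replicate 2.

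Infection response genes lay on the other side of 0. These are genes of the irg and pals families, many of them induced by bacterial, viral or microsporidian infection. Of 8 genes tested 1 had a positive difference, and the list median was -0.26, the lowest of the 36 lists. The same median was -0.13 for August minus water and -0.15 for Z-medium minus water, and these comparisons share the water arrays. The irg-5 gene, part of the intestinal response to pathogenic bacteria, read 415, 399 and 370 in water and 286, 300 and 307 in October. All October arrays were below all water arrays, and so were the Z-medium arrays, at 300, 307 and 294. The log2 difference of irg-5 was -0.41 ± 0.10 (limma adjusted p = 1.00). The pals-25 gene, which together with pals-22 sets the response to intracellular pathogens, read 112, 66.6 and 118 in water and 28.9, 58.1 and 51.5 in October. Its log2 difference was -1.11 ± 0.39, with no overlap, and Z-medium read 49.7, 61.4 and 63.6. The third gene below water on all arrays was irg-8, at -0.24, named after its values were seen.

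C-type lectins, secreted or membrane proteins that bind sugars, were mixed. Of 77 genes tested 30 had a positive difference and the median was -0.06. October was above water on all arrays for 3 and below for 6, beside 398 and 376 of all 10259 genes. The named members were clec-186, at 1435, 1590 and 1431 in water and 1258, 1191 and 1331 in October, and clec-74, at 55.4, 35.0 and 59.6 in water and 79.2, 64.8 and 77.2 in October. Their log2 differences were -0.24 ± 0.08 and 0.59 ± 0.24, both without overlap, and the clec-74 value was 0.35 without water replicate 2. The clec-74 mean in water lay below the level used to filter dim probe sets.

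Detoxification enzymes gave single genes at the edge of the noise and no shift as families. The cytochrome P450 gene cyp-29A4 read 57.2, 59.1 and 76.4 in water and 138, 131 and 108 in October. All October arrays were above the water arrays and above Z-medium, at 63.6, 75.3 and 85.3, while August reached 114. The log2 difference was 0.98 ± 0.23 (95% interval 0.50 to 1.46; limma adjusted p = 1.00). The other named P450, cyp-43A1, read 550, 426 and 405 in water and 380, 340 and 371 in October, a log2 difference of -0.33 ± 0.14 without overlap, and -0.19 without water replicate 1. Of 36 P450 genes tested 18 had a positive difference, and the median was -0.01. The 95% interval lay within 2-fold for 35 of the 36. October was above water on all arrays for 1 P450 and below for 3, beside 398 and 376 of all 10259 genes.

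Conjugating enzymes showed values in both directions. The ugt-2 gene, a UDP-glucuronosyltransferase, read 274, 206 and 158 in water and 348, 326 and 392 in October. The groups did not overlap, and Z-medium, at 356, 318 and 310, lay at the October level. Its log2 difference was 0.77 ± 0.24 (limma adjusted p = 1.00). The ugt-62 gene was below water in each October array, at 2243, 2205 and 2095 in water and 1848, 1872 and 1602 in October, a log2 difference of -0.30 ± 0.08 (limma adjusted p = 1.00). Of 44 ugt genes tested 16 had a positive difference and the median was -0.08. The interval lay within 2-fold for 41 of them.

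**Figure D3:**
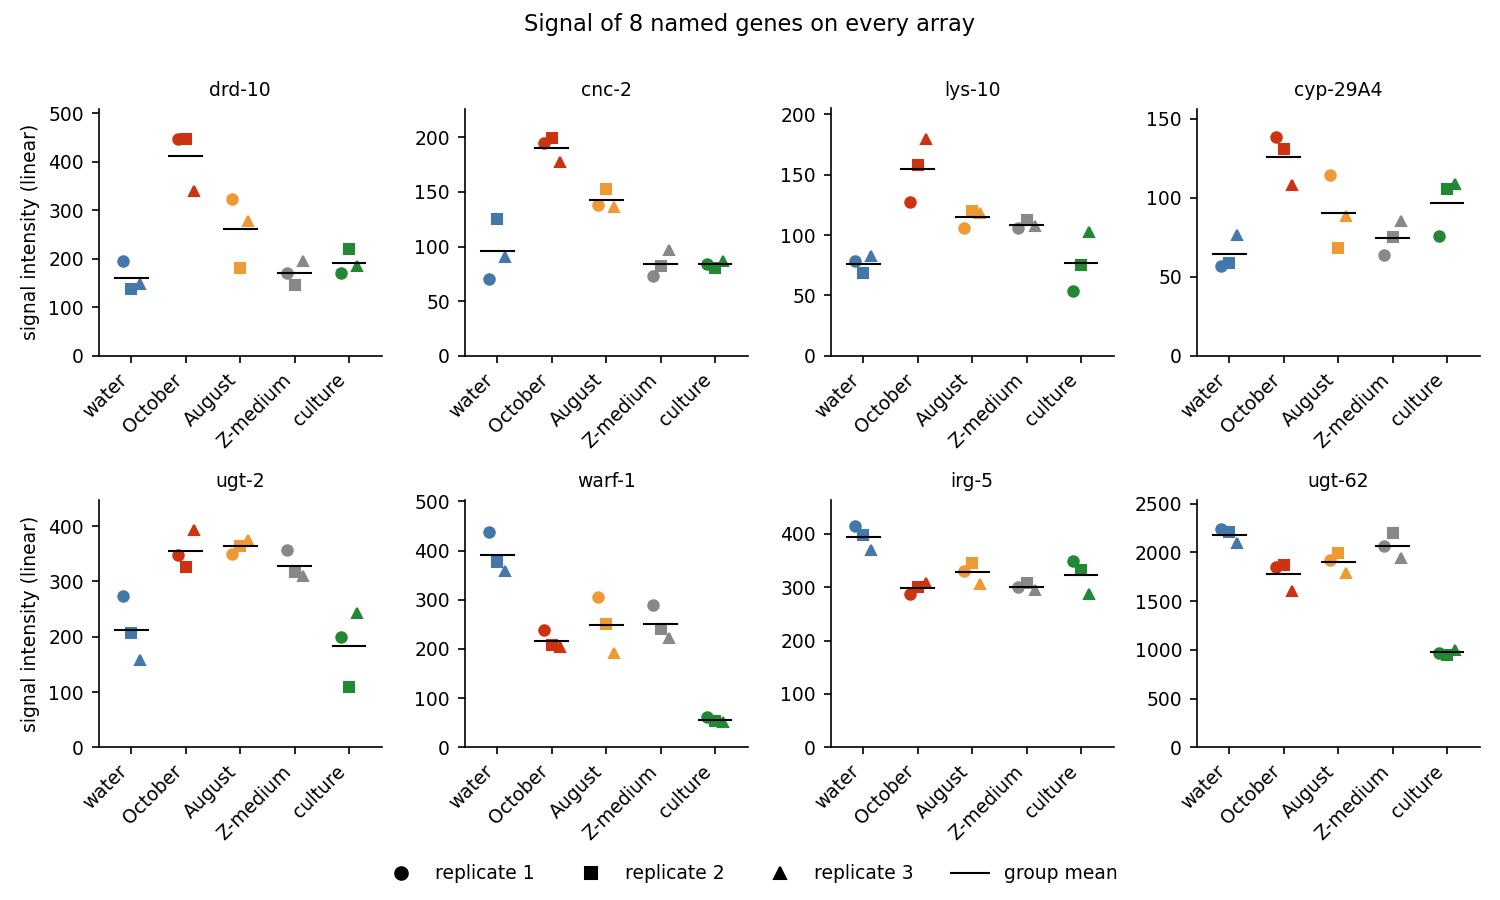
Linear signal intensity of drd-10, cnc-2, lys-10, cyp-29A4, ugt-2, warf-1, irg-5 and ugt-62 on each of the 15 arrays, by group, with the vertical axis starting at 0. Symbols mark the replicate and lines the group mean of 3 arrays. The October arrays are above or below all water arrays in each panel because the genes were chosen for it. For lys-10, ugt-2, warf-1 and irg-5 the Z-medium arrays lie away from water as well.

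Both named glutathione transferases were lower in October. The gst-38 signal was 260, 201 and 180 in water and 147, 130 and 162 in October, and gsto-3, an omega-class enzyme, read 309, 354 and 371 in water and 275, 284 and 251 in October. Neither gene's groups overlapped. Their log2 differences were -0.54 ± 0.18 and -0.35 ± 0.12, both with a limma adjusted p of 1.00. Of 27 glutathione transferase genes tested, 11 had a positive difference, 1 lay above water on all arrays and 3 below, and the median was -0.03. Of all 10259 genes 398 lay above and 376 below.

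Export and metal genes were close to 0. Of 41 ABC transporter genes 15 had a positive difference, with a median of -0.03. On all arrays 4 lay below water, beside 376 of all 10259 genes. The named members overlapped between groups: pgp-10, a P-glycoprotein, read 74.9, 75.4 and 51.8 in water and 34.5, 62.9 and 46.7 in October, and wht-7 differed by 0.14 ± 0.08. Of 11 metal handling genes 4 had a positive difference and the interval of all 11 lay within 2-fold. Their median was -0.06. The metallothionein mtl-2 read 2403, 2217 and 2100 in water and 2165, 2020 and 2010 in October, with overlap. Short-chain dehydrogenases, at 12 positive of 26, had a median of -0.02.

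Of 105 nuclear hormone receptor genes tested 59 had a positive difference, 9 lay above water on all arrays and 1 below, beside 398 above and 376 below of all 10259 genes. Their median was 0.04. The Z-medium minus water median of the same genes was 0.05. The named members were dim. The signal of nhr-50 was 55.4, 50.3 and 42.1 in water and 72.2, 82.5 and 71.5 in October, and that of nhr-18 was 60.8, 63.8 and 55.2 in water and 105, 98 and 70.5 in October. Their log2 differences were 0.62 ± 0.21 and 0.59 ± 0.21, without overlap.

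**Figure D4:**
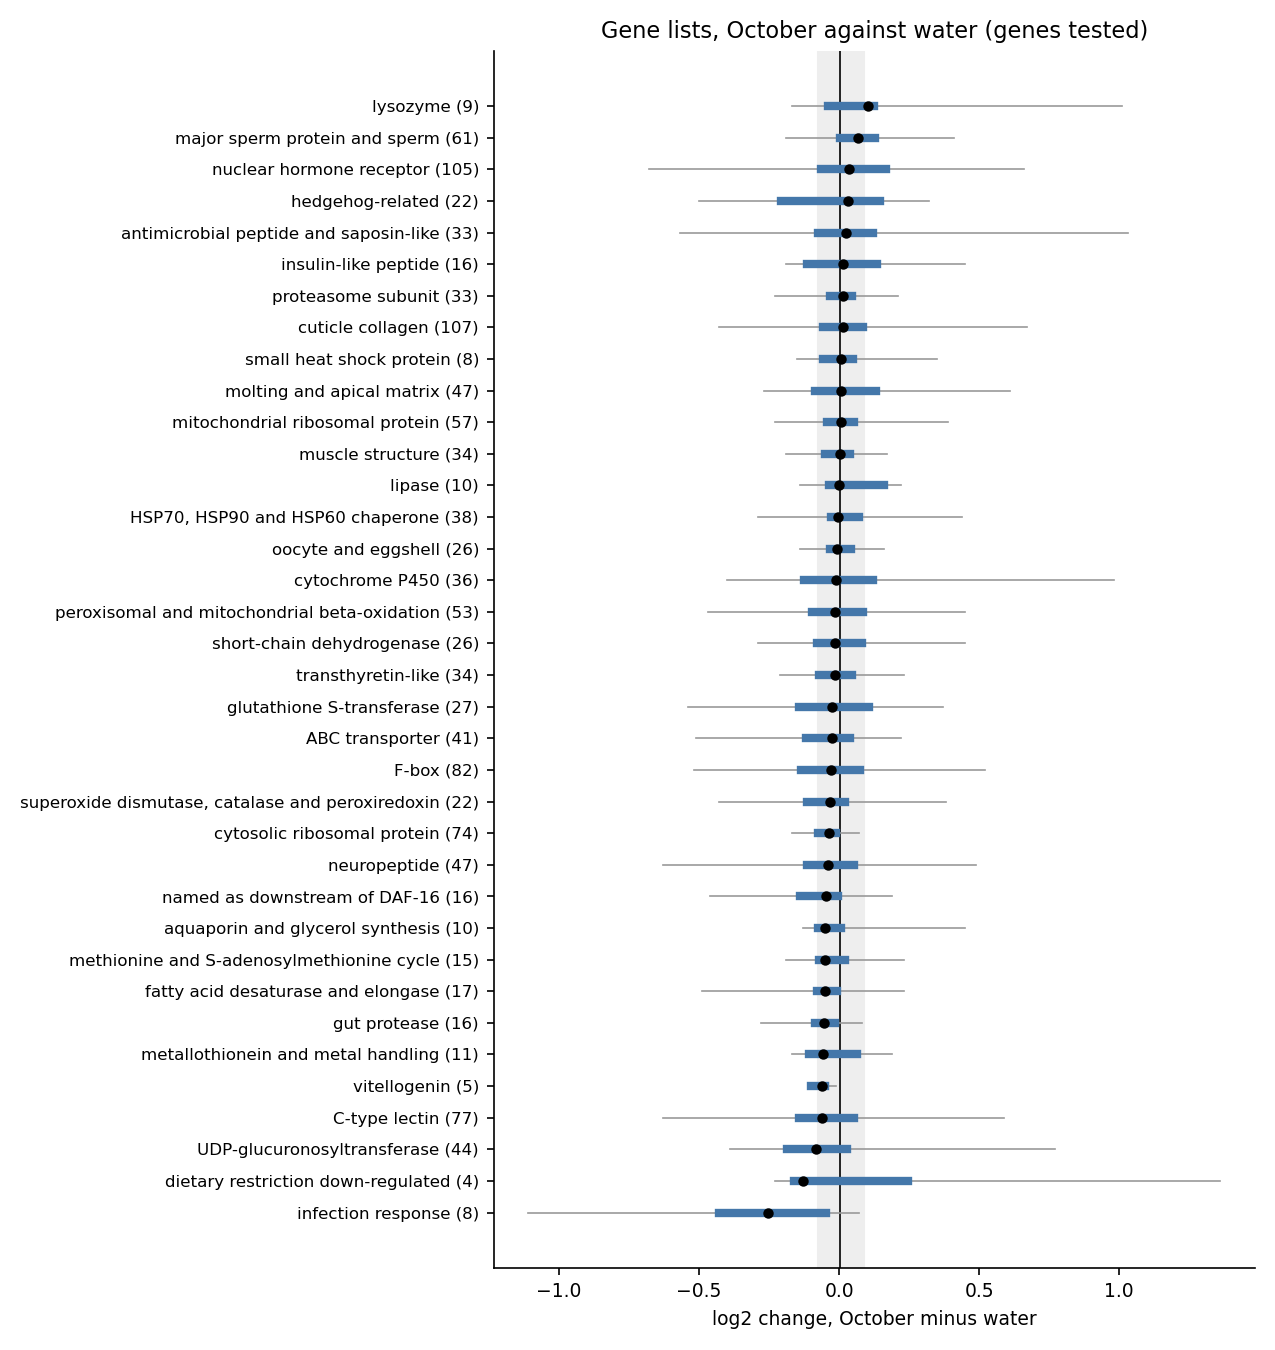
Log2 difference of October minus water for the 36 gene lists, with the number of genes tested in brackets. Points are medians, thick bars the interquartile range of the genes and thin lines their full range, and the grey band is the interquartile range of all 10259 genes. Medians run from 0.10 for lysozymes to -0.26 for infection response genes, and those of most lists lie in the grey band.

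The gene with the smallest p among those below water was warf-1, an ADP-ribosylation factor family GTPase. It read 438, 378 and 358 in water and 238, 207 and 204 in October. The groups did not overlap. Water stood apart from the whole series here: August read 306, 250 and 191, Z-medium 288, 241 and 222, and the culture 61.2, 54.2 and 51.8. The log2 difference of October minus water was -0.85 ± 0.17 (95% interval -1.21 to -0.49; limma adjusted p = 0.648). The adjusted p of warf-1 was 0.0299 with a term for replicate 1 and 0.560 without the 5 replicate 1 arrays. A second probe set assigned to both arl-7 and warf-1, added after its values were seen, read 458, 406 and 390 in water and 262, 249 and 210 in October, a log2 difference of -0.80 ± 0.18. It had an adjusted p of 0.0466 with the term for replicate 1.

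**Figure D5:**
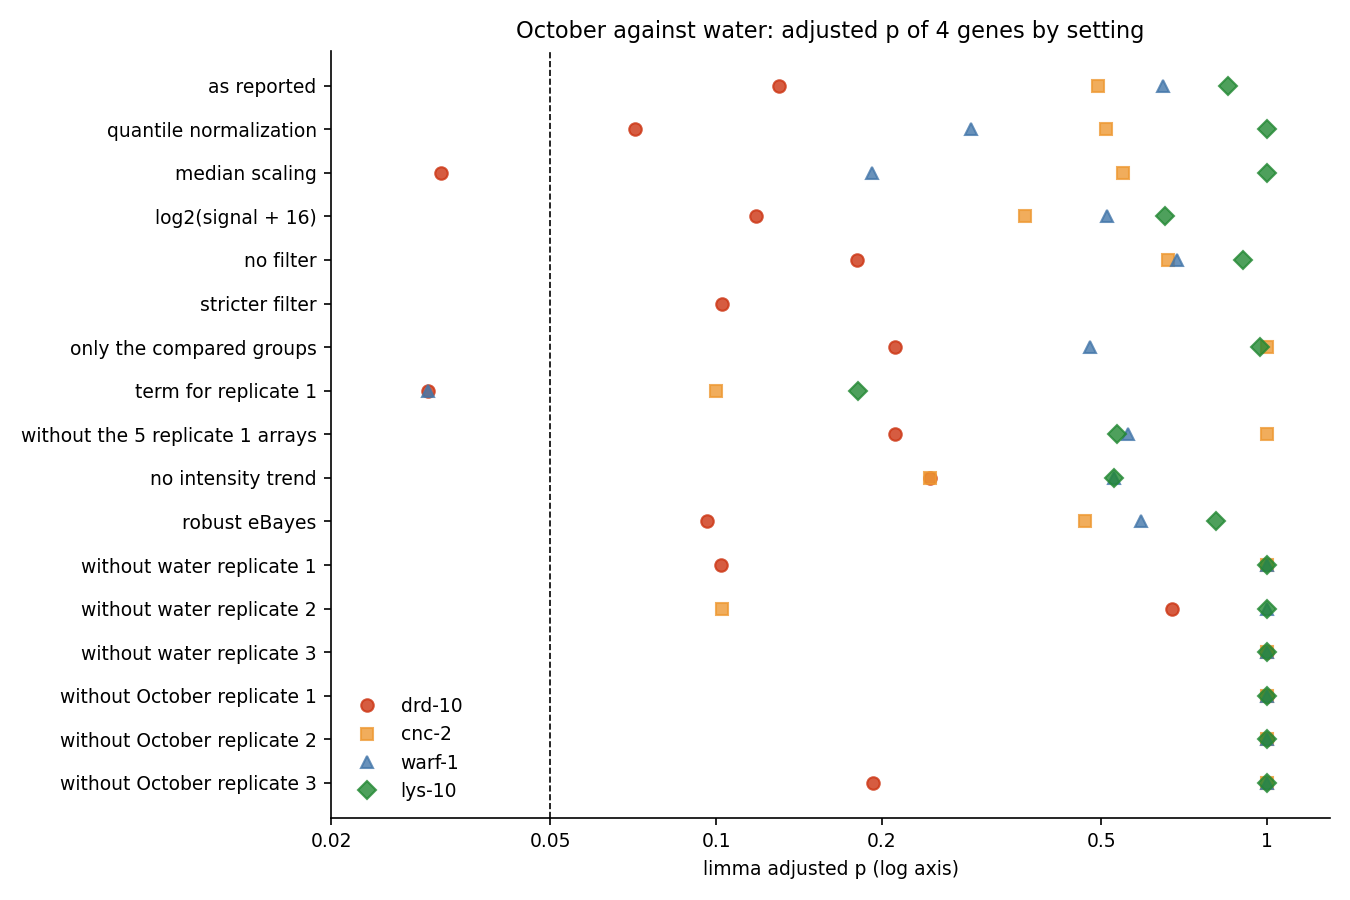
Limma adjusted p (log axis) of drd-10, cnc-2, warf-1 and lys-10 in October minus water, as reported and under alternative settings. The dashed line marks 0.05. Among the settings plotted, which leave out the replicate block, points lie left of it for drd-10 (median scaling and term for replicate 1) and warf-1 (term for replicate 1), and a gene that did not pass the stricter filter has no point there.

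The putative zinc finger gene ztf-13 had the largest log2 difference among the named genes, at 1.99 ± 0.58. It read 30.9, 28.7 and 48.2 in water, below the level used to filter dim probe sets, and 137, 134 and 145 in October, while Z-medium ranged from 40.4 to 155. The kinase gene mbk-1 of the DYRK family read 257, 255 and 283 in water and 432, 424 and 325 in October, a log2 difference of 0.56 ± 0.15. The AT hook gene attf-3 read 106, 77.8 and 80.8 in water and 119, 116 and 139 in October, at 0.51 ± 0.16. For ztf-13 the Z-medium arrays spanned the October values, for mbk-1 they lay between the groups at 298 to 322, and for attf-3 they lay at 112 to 133.

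Of the 30 named genes 4 had another tested probe set that names that gene alone. The Pellino family gene peli-1 had a log2 difference of 0.94 ± 0.27, from 82.7, 120 and 146 in water to 241, 207 and 207 in October, and 0.04 ± 0.14 on its other probe set. The bZIP transcription factor gene let-607 had 0.32 ± 0.10 and, on the other, -0.03 ± 0.11. Among genes below water, the actin-binding tetrathymosin gene tth-1 read 490, 472 and 490 in water and 288, 412 and 372 in October. Its log2 difference was -0.45 ± 0.12. The other tth-1 probe set gave -0.08 ± 0.20, with a 95% interval of -0.51 to 0.35 that includes the first value. The germline nuclear Argonaute gene hrde-1 read 1042, 1137 and 1194 in water and 763, 724 and 832 in October, at -0.54 ± 0.15, against 0.13 ± 0.11 and 0.87 ± 0.64 on 2 others. The probe set with 0.87 was dim, at 84.3, 24.7 and 119 in water and 97.7, 147 and 105 in October. So 0 of these 5 further probe sets separated the groups in the same direction.

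The excretory aquaporin gene aqp-8 had a standard error close to the median of 0.13 for probe sets with a mean signal of 300 to 1000. It read 629, 536 and 559 in water and 773, 770 and 814 in October, with the August arrays at 724, 760 and 857 and Z-medium at 667, 576 and 703. The log2 difference was 0.45 ± 0.13 (limma adjusted p = 1.00). Of 10 aquaporin and glycerol synthesis genes 4 had a positive difference, and the median was -0.05. The lunapark gene lnp-1, which shapes the endoplasmic reticulum, read 531, 555 and 574 in water and 391, 421 and 440 in October, a log2 difference of -0.41 ± 0.11. Z-medium lay at 369 to 468 for lnp-1. The gene chts-1 read 85.7, 76 and 86.3 in water and 71.8, 34.3 and 41.5 in October, a log2 difference of -0.82 ± 0.26. With 1 array left out that difference ran from -1.13 to -0.60. The chts-1 mean in October lay below the level used to filter dim probe sets, and Z-medium read 81.4, 74.3 and 50.7.

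Of the 30 genes with the smallest p among those with non-overlapping arrays, 9 carried clone names only. In this group Y92H12BR.3 had the largest positive difference, at 0.92 ± 0.24, from 73.8, 95.5 and 108 in water to 172, 155 and 194 in October. Y41C4A.32 had the largest negative one, at -0.95 ± 0.25, from 254, 297 and 258 to 182, 128 and 116. Its culture arrays were lower still, at 79.7, 50.9 and 73.7. The other 7 lay between -0.43 and 0.41. Of the 30 genes 15 differed by less than 0.5 on the log2 scale, and 26 had an adjusted p of 1.00.

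Stress genes gave no common direction. Of 38 HSP70, HSP90 and HSP60 chaperone genes 18 had a positive difference and the median was -0.01. The named member hsp-110, a nucleotide exchange partner of HSP70, read 3129, 4994 and 3825 in water and 5732, 5314 and 4920 in October, which overlap. Its log2 difference was 0.44 ± 0.15, and -0.01 ± 0.06 on its other probe set. The first value was 0.28 without water replicate 1 and 0.23 without the 5 replicate 1 arrays. Of 22 antioxidant genes 9 had a positive difference, with a median of -0.03. The thioredoxin reductase gene trxr-1 read 335, 283 and 245 in water and 254, 215 and 175 in October, at -0.43 ± 0.18 with overlap, and 0.02 ± 0.16 on its other probe set. The mitochondrial thioredoxin gene trx-2 read 1972, 2026 and 1984 in water and 1900, 1633 and 1594 in October. Its log2 difference was -0.23 ± 0.10 without overlap, and -0.07 ± 0.11 on the other probe set.

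Metabolic genes were near 0 as groups. Gut proteases, cathepsin B-like and aspartic, had 2 positive of 16 and a median of -0.05, and 0 of 16 separated the groups. The named asp-12 read 1451, 1554 and 1273 in water and 1121, 1126 and 1279 in October, at -0.28 ± 0.13. Fatty acid desaturases and elongases had 4 positive of 17 and a median of -0.05. The desaturase gene fat-3, needed for long polyunsaturated fatty acids, was the 1 member above water on all arrays, at 2088, 2080 and 1699 in water and 2386, 2182 and 2278 in October, a log2 difference of 0.23 ± 0.11, and 0.13 without water replicate 3. Beta-oxidation genes had 23 positive of 53, a median of -0.02 and 51 intervals within 2-fold. Lipases had 5 positive of 10 and a median of 0.00. The methionine cycle had 5 of 15 and -0.05. In the list named as downstream of the insulin pathway factor DAF-16, 4 of 16 were positive, and dod-24 read 1553, 1477 and 1281 in water and 1142, 858 and 1150 in October, at -0.46 ± 0.18 without overlap.

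Reproductive genes, which make up a large part of adult hermaphrodite RNA, were near 0. All 5 vitellogenin genes, which encode yolk proteins made in the gut, had small negative differences from -0.11 to -0.01, and the groups overlapped for each. The vit-6 gene read 21269, 23480 and 22680 in water and 22337, 18663 and 22093 in October, and its log2 difference of -0.10 was -0.02 without October replicate 2. Sperm genes had 46 positive of 61 and a median of 0.07, beside 51.4% positive over all genes. Their Z-medium minus water median was 0.05, from the same water arrays. Only spe-48 separated the groups, at 435, 378 and 414 in water and 455, 457 and 474 in October. The other named sperm gene, spe-4, read 248, 132 and 157 in water and 309, 184 and 210 in October, so that replicate 1 was the highest array of each group. Oocyte and eggshell genes had 12 positive of 26 and a median of -0.01, and mex-5, an RNA-binding regulator of the early embryo, read 5170, 6129 and 6093 in water and 6460, 6211 and 6672 in October. Its log2 difference was 0.16 ± 0.09, 0.08 without water replicate 1, and -0.05 ± 0.11 on its other probe set.

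Cuticle and signalling lists were equally close to 0. Collagens had 59 positive of 107 and a median of 0.01, with col-53 at 111, 103 and 88.6 in water and 150, 230 and 119 in October, a log2 difference of 0.67 ± 0.27, and 0.41 without October replicate 2. Molting genes had 24 positive of 47 and a median of 0.01, and hedgehog-related genes 12 of 22 and 0.03. In that family the warthog gene wrt-1 read 306, 237 and 264 in water and 172, 205 and 191 in October, at -0.50 ± 0.19 without overlap. Transthyretin-like genes had 15 positive of 34, insulin-like peptide genes 8 of 16 and muscle genes 18 of 34, with medians of -0.02, 0.01 and 0.00. All 34 muscle intervals lay within 2-fold. Neuropeptide genes had 14 positive of 47 and a median of -0.04. Here flp-14 read 196, 126 and 144 in water and 233, 202 and 206 in October, and flp-6 read 298, 426 and 367 in water and 286, 268 and 278 in October. These FMRFamide-like peptide genes differed by 0.49 ± 0.18 and -0.38 ± 0.14, in opposite directions and without overlap.

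Cytosolic ribosomal protein genes had 16 positive of 74, a median of -0.04 and a range of -0.17 to 0.07, and all 74 intervals lay within 2-fold. Of these 4 lay below water on all arrays and 0 above, beside 376 below and 398 above of all 10259 genes. Over all genes 51.4% were positive. The August minus water median of the same genes was 0.08 and that of Z-medium minus water 0.04, from the same water arrays. Mitochondrial ribosomal protein genes had 30 positive of 57 and a median of 0.01. The members mrps-28, at 0.32 ± 0.12, and mrpl-4, at -0.23 ± 0.09, separated the groups in opposite directions, and their other probe sets gave 0.08 and 0.03. Proteasome subunits had 21 positive of 33 and a median of 0.01. F-box genes, most of them dim, had 33 positive of 82 and a median of -0.03.

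October arrays lay beyond all 12 other arrays at 21 probe sets (0.155%), 15 above and 6 below. Those chosen by the naming rule were drd-10, cnc-2 and lys-10 above and tth-1 below, and jhdm-1, a histone demethylase family gene, also below at a log2 difference of -0.13 ± 0.08 from water, against 0.05 and 0.08 on its other probe sets. Of the others, which were named after their values were seen, parn-1, a deadenylase-like nuclease gene, read 118, 131 and 168 in water and 191, 208 and 203 in October. The nudix hydrolase gene ndx-2 read 162, 155 and 169 in water and 135, 133 and 92.8 in October. Their log2 differences from water were 0.54 ± 0.19 and -0.45 ± 0.16.

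October and August lake water, given at the same 200% of original content, differed at 2 of 13529 probe sets (0.0148%). Both were lower in October. The P450 gene cyp-33A1 read 274, 217 and 248 in October and 2462, 2674 and 2547 in August, beside 234, 290 and 252 in water. The log2 difference of October minus August was -3.38 ± 0.12 (limma adjusted p = 1.70e-10). October minus water was -0.07 (95% interval -0.32 to 0.18), so a 2-fold change of cyp-33A1 in October was outside the interval. The desaturase gene fat-7 read 2292, 2017 and 2422 in October, 4122, 3479 and 4171 in August and 2454, 2350 and 2278 in water. Its October minus August difference was -0.81 ± 0.12 (limma adjusted p = 0.0446), and its October minus water difference -0.08 (95% interval -0.33 to 0.18). The count was 1 with August replicate 1 or 3 or any 1 October array left out, and 3 without August replicate 2. Without the 5 replicate 1 arrays it was 5, both genes included. The next genes by p did not pass: jhdm-1 was at -0.43 (limma adjusted p = 0.279), and nhr-97, imp-2, bckd-1A, daf-15 and slc-30A5 lay between 0.32 and 0.70 with an adjusted p of 1.00. Their other tested probe sets gave October minus August values near 0, at 0.05 and -0.01 for jhdm-1, 0.09 for nhr-97, -0.04 for imp-2, -0.04 for bckd-1A, -0.06 for daf-15 and 0.15 and 0.02 for slc-30A5.

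The October effect was also set against the effect of the Microcystis culture, each relative to its own control, as a test of the difference itself. The doses differed, at 200% for October and 40% for the culture. It passed at 26 probe sets (0.192%), 17 higher and 9 lower for October, at 390 with a term for replicate 1 and at 129 without the 5 replicate 1 arrays. Leaving out water replicate 1 gave 39, leaving out water replicate 2 gave 15, and leaving out water replicate 3, Z-medium replicate 2 or 3, October replicate 2 or culture replicate 2 gave 17. Among the 30 genes with the smallest p and non-overlapping arrays, ugt-62 passed, with an October effect of -0.30 and a culture effect of -1.09. The difference was 0.79 ± 0.11 (limma adjusted p = 0.00459). For warf-1 the effects were -0.85 and -2.16 and the difference 1.31 ± 0.24 (limma adjusted p = 0.0365). Both genes lay below their control in each comparison, and the culture arrays were lowest. The October minus water values of the other 24 ran from -0.37 to 0.17. They include asp-12, fat-7 and mtl-2, named above, with culture effects of -1.32, -1.06 and -0.96 (limma adjusted p = 0.0222, 0.0252 and 0.00283). For mtl-2 the Z-medium control itself stood apart, with a mean of 9200 beside 2240 in water and 4719 in the culture. The lysozyme gene lys-4 had an October effect of 0.02 and a culture effect of -1.06, the cathepsin B-like gene cpr-4 -0.01 and -0.97, pud-3 -0.13 and 2.33, and the P450 gene cyp-35C1 -0.25 and 0.83.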

How the data were processed

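The authors deposited 1 intensity per probe set and array, on a linear scale, computed with MAS5 in Affymetrix Expression Console 1.2.0.20, per the submitters' processing notes. Each array had been scaled to a common trimmed mean. Signals were taken to log2 without an offset. Of 22625 probe sets, 77 controls were left out, and the 13529 whose mean over all arrays reached the 40th percentile (log2 5.86, linear 57.9) were tested. Symbols came from the array annotation updated by gene ID: 20766 probe sets had 1 symbol, 887 several and 895 none. No genome build is named.

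A linear model of group means was fitted to all 15 arrays (limma 3.58.1, R 4.3.3, eBayes with intensity trend), with Benjamini-Hochberg adjustment over 13529 probe sets, tested on simulated data. Errors are SE for log2 differences and SD for signals, n = 3. An exact permutation test of 3 against 3 cannot go below p = 0.1. The array number limits precision. The labels call the replicates biological.

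The naming rule took the 15 higher and 15 lower with the smallest p among those with 1 symbol and non-overlapping arrays. It also took the 2 members of each of 36 lists with the smallest p (brightest probe set per gene), and 5 in each direction for October minus August. Some of these list members and October minus August genes are not given in the text. The comparison, lists and rules were chosen with earlier results of these data known. Deviations of August and October arrays with the same replicate number correlated at 0.46, 0.21 and 0.23. August replicate 2 correlated with October replicate 3 at 0.15, and August replicate 3 with October replicate 2 at 0.10. Replicate 1 thus deviated alike, while these values do not settle whether replicates 2 and 3 pair by number. For water and October they correlated at 0.47, 0.06 and 0.14, and water replicate 2 with October replicate 3 at 0.27. So replicate 1 of these groups deviated alike, while replicates 2 and 3 did not pair by number. Alternatives were other scalings, offset, filters, replicate terms, variance models and left-out arrays.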

Additional observations from a re-analysis of the deposited data

Results flagged for a closer look

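A tested difference between 2 effects drew attention to 4 genes. October minus August was -3.38 on the log2 scale for cyp-33A1 and -0.81 for fat-7. Against the culture, October lay less far below its control for ugt-62, by 0.79, and for warf-1, by 1.31. Each rests on 3 arrays a group and passed limma at an adjusted p under 0.05, and all 3 arrays of each compared group lay apart from those of the other for cyp-33A1 and fat-7.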

How the results depend on the processing

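The count of 0 probe sets for October minus water became 1 with median scaling, 2 with the replicate block and 3 with a term for replicate 1, and ranged from 0 to 0 with 1 array left out. The block passed drd-10 and warf-1 (limma adjusted p = 0.0271 for both). Water and October share only the replicate number. Their replicate 1 arrays correlated at 0.47, but water replicate 2 correlated best with October replicate 3. The unadjusted count of 286 for October minus water ran from 178 with the stricter filter to 635 with no filter. For October minus August the 2 calls became 1 with quantile normalization, 4 with no filter, 1 with only the compared groups, 5 without the 5 replicate 1 arrays and 1 with no intensity trend, and 1 to 3 with 1 array left out. The replicate block left 2. For the October effect minus the culture effect the 26 calls became 459 with the replicate block, 390 with a term for replicate 1 and 129 without the replicate 1 arrays, and 15 to 39 with 1 array left out. The cause was not tested. Of the named genes 4 values changed sign: dhs-11 (-0.0246) and smf-1 (-0.0140) without the replicate 1 arrays, and cyp-33A1 (0.0165 without water replicate 2 and 0.0182 without October replicate 2, in a range from -0.148). None of the 30 genes with the smallest p among those with non-overlapping arrays did so in the alternatives run. The median difference of all genes in the culture comparison moved from 0.004 to -0.11 with median scaling. The interval lay within 2-fold for 83.0% of probe sets with a signal under 100 and 99.6% of those over 1000.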
